A study of Macaca mulatta with 2 samples.

Results

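The gamma and delta segments of the T cell receptor (TCR) were examined in circulating CD4+CD8+ double-positive (DP) T cells. All gene features with a symbol that starts with TRGV, TRGC, TRGJ, TRDV, TRDC or TRDJ were taken, by the deposited symbol or by the symbol of the Ensembl ID, and 3 of 35432 gene features met this rule. They were the delta variable segment TRDV3 (ENSMMUG00000042135), under its deposited symbol, and the gamma variable segments TRGV1 (ENSMMUG00000054501) and TRGV9 (ENSMMUG00000052981), which were listed by ID only and were named through a table of gene names. No feature with a joining or constant segment symbol of either chain was found (0 for each of TRGC, TRGJ, TRDC and TRDJ), so delta and gamma below stand for these 3 variable segments. The cells came from the blood of 1 healthy, untreated male rhesus monkey aged 6 years. CD4+ cells were taken with releasable beads from fresh mononuclear cells, and the CD8+ cells among them were then taken with a second kind of bead. The cells gave a 5′ RNA library and a second library that counted antibody tags of surface CD4 and CD8, with 1 shared set of 7923 barcodes. There is 1 animal and 1 library of each kind, with no replicate, so no difference was tested and each interval covers counting error only.

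A T cell carries either an alpha and a beta chain or a gamma and a delta chain as its antigen receptor, and each chain is built by joining variable and joining segments to a constant region. The delta segments lie inside the alpha locus. The gamma locus is often rearranged in alpha beta T cells too, because gamma joining starts before a thymocyte commits to a lineage, so that a gamma transcript alone does not mark a gamma delta T cell. Human blood gamma delta T cells that answer phosphoantigens use a receptor with TRGV9, and most gamma delta T cells in blood carry neither CD4 nor a CD8 alpha beta dimer.

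In the gene list, TRGV1 and TRGV9 stand next to each other between AMPH and STARD3NL. RefSeq places AMPH on chromosome 3 of Mmul_10, the build of the files, at 76531851 to 76778534 on the plus strand and STARD3NL at 76928017 to 76981520 on the minus strand. TRDV3 stands in the list between OR4E2 and DAD1, which RefSeq places on chromosome 7 at 83563920 to 83564861 and at 84578550 to 84602147. The run that holds the gamma segments has 11 features without a deposited symbol, and 9 of them have no name in any source used here. In CD3E+ cells these 9 held 10556 unique molecular identifiers (UMIs, 1 for each captured RNA molecule), beside 1090 of TRGV1 and TRGV9, so most UMIs of the run do not belong to a named segment.

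The study's limits on genes (200 to 4000) and mitochondrial UMIs (20%) left 7601 cells. Of these, 7311 (96.2%) had a UMI of CD3E, a chain of the CD3 complex that every TCR needs, and they are called CD3E+ cells. They had a median of 3656 gene UMIs (quartiles 3001 and 4720) and 30113654 gene UMIs in all. For background, 86 cells were set apart that held 3 or more UMIs over 7 genes of B cells but no CD3D, CD3E or CD3G, with a median of 4137.5 gene UMIs. In these B gene cells none of the 3 segments had a UMI, and a count of 0 allows a share of up to 4.20%. A few CD3E+ cells held B cell genes as well, with 95 of 7311 at 3 or more such UMIs. Doublets were not called.

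Of the 3 segments, TRGV1 was found in most cells and TRDV3 in fewest. A TRGV1 UMI was present in 489 of 7311 CD3E+ cells (6.69%, exact binomial 95% interval 6.13 to 7.29), with 756 UMIs or 25.1 CPM (counts for each 1000000 gene UMIs). A TRGV9 UMI was present in 147 cells (2.01%, 1.70 to 2.36), with 334 UMIs or 11.1 CPM. TRDV3 had a UMI in 20 cells (0.274%, 0.167 to 0.422), with 100 UMIs or 3.32 CPM. At 2000 UMIs per cell, to which 6935 of the CD3E+ cells could be thinned, the shares were 4.40% for TRGV1, 1.46% for TRGV9 and 0.202% for TRDV3, in the same order. Before thinning, the TRGV1 share has an interval that lies above the 4.20% which the B gene cells allow as background. After thinning this did not hold, since the TRGV1 interval was 3.93 to 4.91 and 79 B gene cells allowed up to 4.56%. Either limit is set by the number of B gene cells, so neither permits a conclusion on the TRGV9 and TRDV3 shares, which are lower.

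The segments differed in how their UMIs were spread over cells. TRDV3 UMIs were concentrated, and 9 cells with 5 or more UMIs held 84.0% of them, with up to 17 in 1 cell. The other 11 cells had 1 to 3 UMIs each. TRGV1 was spread thinly, with 1 UMI in 351 of its 489 cells, a mean of 1.55 UMIs per cell with any, and at most 9. TRGV9 lay between them, with a mean of 2.27 UMIs per cell with any and at most 14. Because UMIs of 1 cell are not independent, the intervals of a UMI ratio below are too narrow where few cells hold the UMIs, above all for TRDV3.

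**Figure D1:**
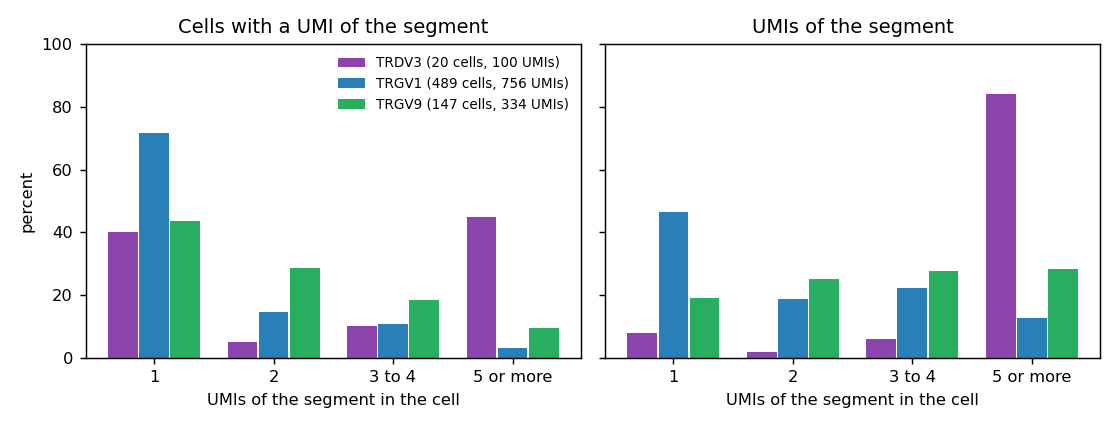
UMIs of each segment per CD3E+ cell. The horizontal axis gives the number of UMIs of the segment in the cell, and bars give the percent of the cells with a UMI (left) or of the segment's UMIs (right); the 9 TRDV3 cells with 5 or more UMIs hold 84.0% of its UMIs, while 351 of 489 TRGV1 cells hold 1 UMI.

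The level of each segment was then compared between CD3E+ cells with and without a raw UMI of 5 marker genes. TRAV10 is an alpha variable segment, used in humans by the invariant receptor of natural killer T cells. ZBTB16 encodes PLZF, a transcription factor of innate-like T cells, and EOMES encodes a T-box factor of cytotoxic and memory T cells. GZMB encodes the cytotoxic protease granzyme B, and CCR7 a homing receptor of naive and central memory T cells. A UMI was found in 247 CD3E+ cells for TRAV10, in 220 for ZBTB16, in 3273 for GZMB, in 356 for EOMES and in 2163 for CCR7. Cells with GZMB had a lower median depth than cells without (3311 against 4048.5 gene UMIs) and cells with CCR7 a higher one (4377 against 3451), so levels are given in CPM and shares also after thinning.

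**Figure D2:**
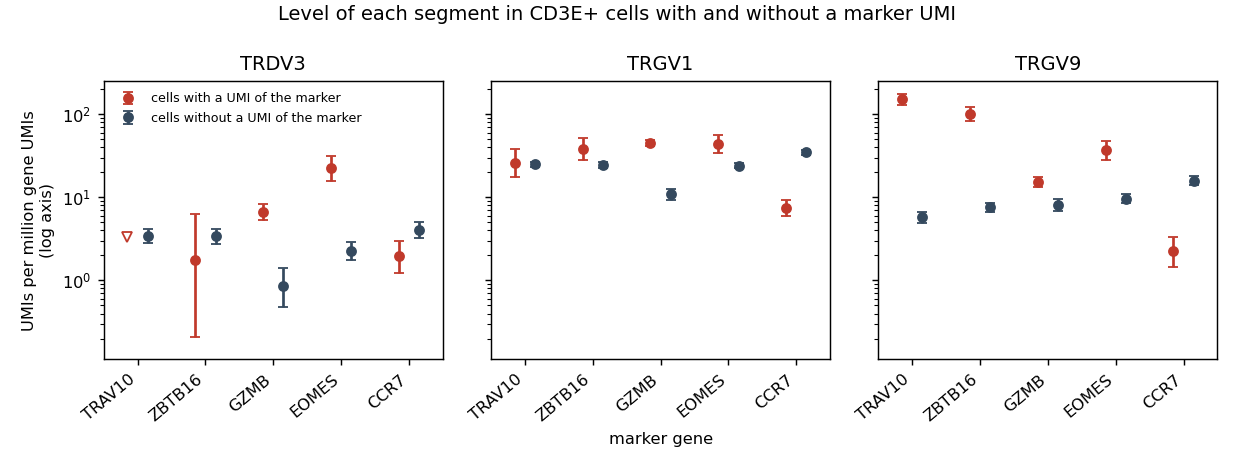
Level of TRDV3, TRGV1 and TRGV9 in CD3E+ cells with (red) and without (dark grey) a UMI of each marker, in CPM on a log axis. Points are summed counts, bars exact Poisson 95% intervals, and the open triangle is the upper limit where no UMI was found; TRGV9 is highest in cells with TRAV10 (151.8 CPM), and TRGV1 and TRGV9 are lower in cells with CCR7 (7.51 and 2.25 CPM).

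Cells with GZMB held more TRDV3 and TRGV1, cells with TRAV10, ZBTB16 or EOMES held more TRGV9, and cells with CCR7 held less TRGV1 and TRGV9 and fewer TRDV3 UMIs, though not a lower share of cells with TRDV3. With GZMB, 2 of the 3 segments were at least 2-fold higher, where 6.49% of the 9274 genes with 50 or more UMIs in the higher group were. With CCR7, all 3 were at least 2-fold lower in summed UMIs, where 5.03% of 9208 genes were, and for TRDV3 this did not hold in each alternative. TRGV9 was the 1 segment at least 2-fold higher with TRAV10 (background 0.27% of genes), with ZBTB16 (0.162%) and with EOMES (0.57%). TRGV1 had fewer than 50 UMIs in the higher group with TRAV10 (29) and ZBTB16 (44), as TRDV3 had with EOMES (35), and these were not counted. No counted segment was at least 2-fold lower with TRAV10 (background 3.96%), ZBTB16 (3.97%), GZMB (4.77%) or EOMES (3.45%), or at least 2-fold higher with CCR7 (2.23%). A higher level with GZMB was not particular to TRDV3 and TRGV1. Of the 7 unnamed features of the gamma run with a UMI in CD3E+ cells, 5 were at least 2-fold higher with GZMB, at any number of UMIs. Of 23 named alpha segments tested, 4 were at least 2-fold higher with GZMB and 9 lower. Of 19 named beta segments tested, 5 were higher and 5 lower.

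TRDV3 was higher in cells with GZMB or EOMES. It stood at 6.74 CPM in cells with GZMB and 0.857 CPM in cells without, a log2 ratio of 2.98 (2.17 to 3.88) from 85 and 15 UMIs. As cells, the difference was smaller, with a TRDV3 UMI in 13 of 3273 cells with GZMB (0.397%, 0.212 to 0.678) and 7 of 4038 without (0.173%, 0.0697 to 0.357), and these intervals overlap. With EOMES, TRDV3 stood at 22.5 CPM against 2.28 CPM, a log2 ratio of 3.304 (2.67 to 3.92). This ratio rests on 6 cells (1.69%, 0.621 to 3.63, against 0.201%, 0.110 to 0.338), and it was -0.046 (-5.37 to 2.48) when cells with 1 EOMES UMI were left out, since 34 of the 35 UMIs lie in those cells. With CCR7 the log2 ratio was -1.04 (-1.81 to -0.33), but 7 cells with CCR7 and 13 without held TRDV3 at shares of 0.324% and 0.253%. The interval of the ratio included 0 after thinning (-1.44), with 2 or more CCR7 UMIs (-0.41) and with the mitochondrial limit on the named genes alone (-0.63). No TRDV3 UMI was found in the 247 cells with TRAV10, which allows a share of up to 1.48%, above the 0.283% of the cells without TRAV10. With ZBTB16, 2 UMIs gave a log2 ratio of -0.96 with an interval of -4.02 to 0.94.

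The cells with most TRDV3 are few enough to be given one by one. The highest held 17 TRDV3 UMIs, 4 of TRGV1 and 8 of GZMB among 1075 gene UMIs, and none of a named alpha or beta variable segment. The next held 12 TRDV3, 4 TRGV1 and 16 GZMB UMIs, with 1 UMI of EOMES and 1 of a beta segment. Cells with 11 and 10 TRDV3 UMIs had no TRGV1, and 21 and 6 GZMB UMIs. The cell with 8 TRDV3 UMIs had 1 of TRGV1 and 6 of GZMB, but also 4 UMIs of beta segments, 8 of the alpha constant gene TRAC and 2 of CCR7 at a high depth of 8233 gene UMIs. Of the 3 cells with 7 TRDV3 UMIs, those with 10 and 18 GZMB UMIs had none of an alpha or beta variable segment, while the third had no GZMB, 3 CCR7 and 6 alpha segment UMIs. The cell with 5 TRDV3 UMIs had 2 of TRGV1 and 8 of GZMB. Thus 8 of the 9 cells held GZMB, and the 1 without it was also the 1 with alpha segment UMIs.

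Among the 9 cells with 5 or more TRDV3 UMIs, 1 had a UMI of the 25 named alpha variable segments (11.1%, 0.281 to 48.2), against 55.2% of CD3E+ cells without TRDV3. Beta variable segments, of which 21 are named, were found in 3 of the 9 (33.3%, 7.49 to 70.1) against 46.8%. TRAC UMIs were present in 6 of the 9, 66.7% (29.9 to 92.5), beside 69.5% of cells without TRDV3. Cells with TRDV3 and TRGV1 together numbered 6, which is 30% of the 20 TRDV3 cells (11.9 to 54.3) against 6.62% of the cells without TRDV3 (6.06 to 7.22). All 6 held GZMB and none held a named alpha segment (interval up to 45.9%), while 2 held a beta segment and 4 held TRAC. No cell held both TRDV3 and TRGV9, and 0 of 20 allows a share of up to 16.8%. TRGV1 and TRGV9 were found together in 9 cells, 6.12% of TRGV9 cells (2.84 to 11.3) and 6.70% of the cells without TRGV9 (6.13 to 7.30), and these intervals overlap.

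TRGV1 was higher with GZMB and lower with CCR7. It stood at 44.9 CPM in cells with GZMB and 10.9 CPM in cells without, a log2 ratio of 2.05 (1.81 to 2.29), and 10.6% of cells with GZMB (9.60 to 11.7) against 3.49% without (2.95 to 4.11) had a UMI. After thinning the shares were 7.23% and 2.11%. The level also went with the number of GZMB UMIs, at 10.9 CPM with 0, 31.4 with 1 to 4, 41.3 with 5 to 14 and 59.6 with 15 or more. With CCR7 the level was 7.51 CPM against 34.7 CPM, a log2 ratio of -2.21 (-2.56 to -1.87). EOMES gave a smaller ratio of 0.88 (0.50 to 1.24). With ZBTB16 the ratio was 0.64 (0.17 to 1.08), and its interval included 0 after thinning (0.86, -0.21 to 1.76). No difference was detectable with TRAV10 at this depth, with 26.2 and 25.1 CPM and a log2 ratio of 0.06 (-0.52 to 0.60).

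**Figure D3:**
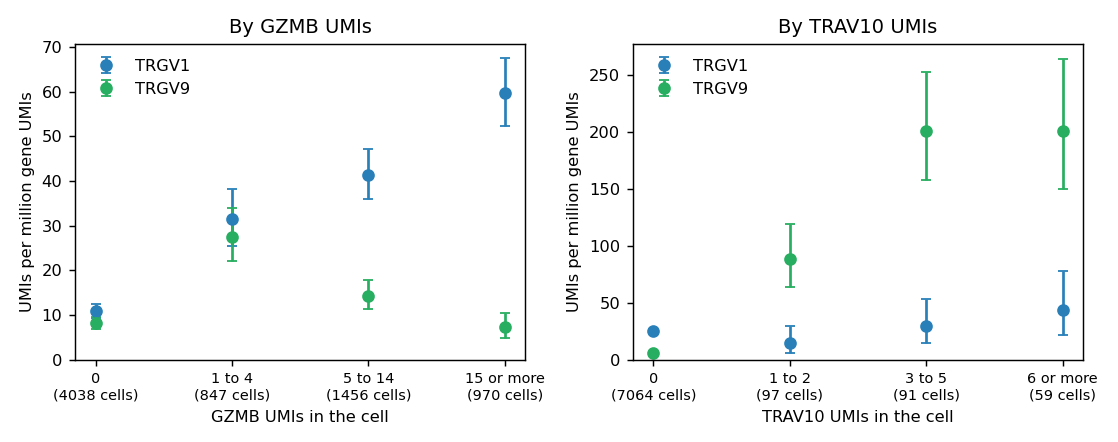
TRGV1 and TRGV9 by the number of GZMB UMIs (left) and TRAV10 UMIs (right) in the cell, as CPM of summed counts with exact Poisson 95% intervals. TRGV1 goes from 10.9 CPM with 0 to 59.6 CPM with 15 or more GZMB UMIs, while TRGV9 is highest at 1 to 4 (27.5 CPM).

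Most TRGV1 cells also carried a named alpha or beta segment. An alpha or beta variable segment UMI was found in 83.2% of TRGV1 cells (79.6 to 86.4) and 77.4% of other CD3E+ cells (76.4 to 78.4). Beta segments, with or without an alpha segment, were found in 61.3% (56.9 to 65.7) against 45.7% (44.5 to 46.9). In the 67 cells with 3 or more TRGV1 UMIs the share was 74.6%. Of the 300 TRGV1 cells with a beta segment, 115 had 2 or more UMIs of TRBV11-1, TRBV10-1 or TRBV28, described below. Alpha segments, counted in the same way, went slightly the other way, at 50.3% (45.8 to 54.8) against 55.5% (54.3 to 56.7).

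The share with TRGV1 differed between cells with different beta segments. Of the 38 named alpha and beta segments that had 2 or more UMIs in at least 30 CD3E+ cells, the median share of cells with TRGV1 was 4.14% and the range 0.610% to 45.5%. It was highest in cells with TRBV11-1 (45 of 99 cells, 35.4 to 55.8), then TRBV10-1 (36 of 131, 27.5%, 20.05 to 36.0) and TRBV28 (35 of 169, 20.7%, 14.9 to 27.6). Within cells that had GZMB, the shares were 61.3% with TRBV11-1 (48.1 to 73.4), 50.8% with TRBV10-1 (37.9 to 63.6) and 39.3% with TRBV28 (28.8 to 50.5), against 9.65% to 9.88% of the other cells with GZMB. Without GZMB, 18.9% of TRBV11-1 cells (7.96 to 35.2), 5.88% of TRBV10-1 cells (1.63 to 14.4) and 2.35% of TRBV28 cells (0.286 to 8.24) had TRGV1. The other cells without GZMB had it in 3.35% to 3.52%. This lies below the interval of TRBV11-1 and inside those of TRBV10-1 and TRBV28. Among the alpha segments, TRAV19 stood highest at 16.1% (74 of 461 cells, 12.8 to 19.7), and TRBV7-2 had the lowest share of all at 0.610%. These segments are named after their values were seen.

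The cells with 2 or more UMIs of TRBV11-1, TRBV10-1 or TRBV28 were 398 of the 7311 CD3E+ cells and 115 of the 489 TRGV1 cells (23.5%). In the 6913 cells without them, the TRGV1 log2 ratio with GZMB was 1.35 (1.08 to 1.63), lower than the 2.05 in all cells and still above 0. These segments were taken for their high TRGV1 shares, which lay mostly in cells with GZMB. A lower ratio was built into that choice and does not measure their part in the ratio. The clonal make-up of these cells was not analysed here.

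**Figure D4:**
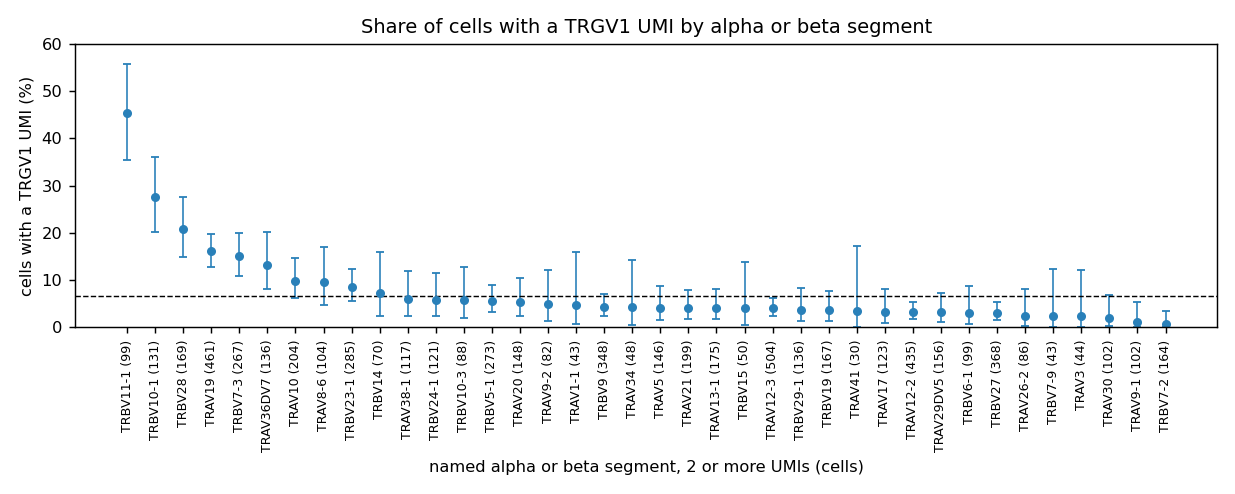
Percent of CD3E+ cells with a TRGV1 UMI among cells with 2 or more UMIs of each named alpha or beta variable segment, with exact binomial 95% intervals and the number of cells in brackets. The dashed line is the share in all CD3E+ cells (6.69%); TRBV11-1 (45.5%), TRBV10-1 (27.5%) and TRBV28 (20.7%) stand highest.

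Of the 5 markers, TRAV10 gave the highest ratio for TRGV9. It stood at 151.8 CPM in the 247 cells with TRAV10 and 5.72 CPM in the others, a log2 ratio of 4.73 (4.41 to 5.05). A TRGV9 UMI was found in 88 of the 247 (35.6%, 29.7 to 41.9) and in 59 of the other 7064 (0.835%, 0.636 to 1.08), so that cells with TRAV10, 3.38% of the CD3E+ cells, held 50.3% of the TRGV9 UMIs. After thinning the shares were 23.6% and 0.672%. The level was 88.5 CPM with 1 to 2 TRAV10 UMIs and 201.4 and 201.2 CPM with 3 to 5 and with 6 or more. Among the 38 alpha and beta segments above, TRAV10 had the highest share with TRGV9 (38.2%), and TRBV7-2 came next at 5.49% (9 of 164 cells).

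The other markers gave smaller ratios for TRGV9. The log2 ratio with ZBTB16 was 3.73 (3.39 to 4.06) in all CD3E+ cells, 3.53 (2.99 to 4.05) in cells without TRAV10 and 0.79 (0.33 to 1.24) within cells with it. The ratio without TRAV10 rests on 41 TRGV9 UMIs in 10 cells with ZBTB16. Cells with both TRAV10 and ZBTB16 had TRGV9 in 39 of 73 (53.4%, 41.4 to 65.2), against 49 of 174 with TRAV10 but no ZBTB16 (28.2%, 21.6 to 35.5). After thinning these shares were 32.9% (22.3 to 44.9) and 19.5% (13.7 to 26.4), and the intervals overlap. With EOMES the ratio was 1.95 (1.51 to 2.36), and 2.97 (2.46 to 3.46) in cells without TRAV10, from 50 TRGV9 UMIs in 13 cells with EOMES. After thinning, with EOMES also read from the thinned counts, the ratio in all CD3E+ cells was 0.035 (-1.61 to 1.29). With cells grouped by raw EOMES UMIs, the thinned share with TRGV9 was 2.92% with EOMES (10 cells, 1.41 to 5.30) and 1.38% without (1.11 to 1.69). With GZMB the ratio was 0.91 (0.59 to 1.23), 1.02 (0.56 to 1.49) without TRAV10 and 0.36 with an interval that includes 0 (-0.10 to 0.81) with it. As cells, the difference was smaller. TRGV9 was found in 73 of 3273 cells with GZMB (2.23%, 1.75 to 2.80) and 74 of 4038 without (1.83%, 1.44 to 2.30). In cells without TRAV10 it was found in 29 of 3156 (0.919%, 0.616 to 1.32) and 30 of 3908 (0.768%, 0.519 to 1.09). In both cases the intervals overlap. By the number of GZMB UMIs, TRGV9 stood at 8.11 CPM with 0, 27.5 with 1 to 4, 14.3 with 5 to 14 and 7.24 with 15 or more. CCR7 gave the lowest ratio, -2.82 (-3.49 to -2.22), and -3.43 (-5.07 to -2.17) within cells with TRAV10, where 4 of 48 cells with CCR7 and 84 of 199 without had TRGV9.

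Within the TRAV10 cells, those with TRGV9 differed from those without in their receptor and innate genes. The groups also differed in TRAV10 itself. A TRGV9 UMI was found in 24 of 97 cells with 1 to 2 TRAV10 UMIs. With 3 to 5 it was found in 37 of 91, and with 6 or more in 27 of 59. The part of the TRAV10 count in the values below was not tested. A second named alpha segment was found in 5 of the 88 with TRGV9 (5.68%, 1.87 to 12.8) and in 66 of the 159 without (41.5%, 33.8 to 49.6). Features without a name that the list places between TRAV12-2 and TRAV8-3 went the other way. ENSMMUG00000057062 was found in 37 of the 88 (42.0%, 31.6 to 53.0) and 23 of the 159 (14.5%, 9.40 to 20.9). ENSMMUG00000062974 was found in 30 (34.1%, 24.3 to 45.0) and 17 (10.7%, 6.35 to 16.6). ENSMMUG00000065017, right after TRAV10, went with the named segments, in 0 and 8 cells. They were chosen after their values were seen. TYROBP, which encodes the adaptor DAP12 of activating NK receptors, stood at 1202 CPM against 372.7 CPM, with a UMI in 95.5% and 45.3% of cells. KLRB1, which encodes the NK receptor CD161, stood at 825.8 CPM against 386.6 CPM, and KLRG1, an inhibitory receptor of effector cells, at 225.9 against 85.9 CPM. CCR7 stood at 13.0 CPM against 133.0 CPM. Of 1307 genes with 50 or more UMIs in the higher group, 0.536% were at least 2-fold higher by CPM + 10 with TRGV9 and 1.84% at least 2-fold lower. Of 6 NK receptor and adaptor genes, 4 were at least 2-fold higher and 0 lower.

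Among the features higher with TRGV9 was ENSMMUG00000059234, which the list places between TRBV24-1 and TRBV27. It had 342 UMIs in 82 of the 88 cells with TRAV10 and TRGV9, or 888.1 CPM, against 189 UMIs or 261.9 CPM in the cells with TRAV10 and no TRGV9. No source used here says what it encodes. It was chosen after its values were seen. A feature of the gamma run, ENSMMUG00000059649, went the other way, with a UMI in 2 of the 88 cells (2.27%, 0.276 to 7.97) and 33 of the 159 (20.8%, 14.7 to 27.9).

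The TRGV9 cells without TRAV10 numbered 59, and 23 of them had 3 or more TRGV9 UMIs. An alpha variable segment was found in 3 of these 23 (13.0%, 2.78 to 33.6), against 54.8% of the CD3E+ cells without TRGV9. A beta segment was found in 7 (30.4%, 13.2 to 52.9), an interval that includes the 46.8% of the cells without TRGV9. TRAC was found in 18 (78.3%, 56.3 to 92.5), against 69.4% of the cells without TRGV9. GZMK, which encodes the protease granzyme K, stood at 1196 CPM in the 23 cells, with a UMI in 16. In the 88 TRGV9 cells with TRAV10 it stood at 264.9 CPM, with a UMI in 44. These 88 have 1 or more TRGV9 UMIs, and at that limit the 59 cells had GZMK at 880.9 CPM, with a UMI in 34. EOMES stood at 139.4 CPM with a UMI in 9 of the 23, at 68.1 CPM in the 59 and at 13.0 CPM in the 88. KLRB1 stood at 929.0 CPM in the 23. LEF1, a transcription factor of naive T cells, had no UMI in the 23. Of the 59 cells, 3 also had 3 or more B gene UMIs (75 of the 79 B gene UMIs in the 59), and none of those 3 was among the 23.

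**Figure D5:**
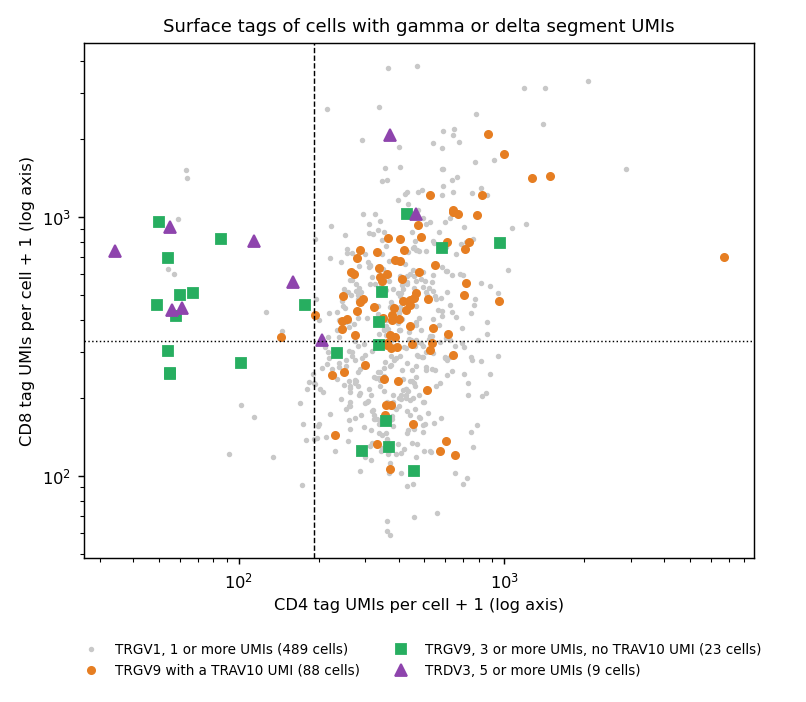
CD4 and CD8 tag UMIs per cell, each plus 1 on a log axis, for CD3E+ cells with segment UMIs. The dashed and dotted lines mark the tag counts at or below which 90% of B gene cells lie (191 for CD4, 330.5 for CD8); 6 of 9 TRDV3 cells and 12 of 23 TRGV9 cells without TRAV10 lie left of the CD4 line, and 1 of 88 TRGV9 cells with TRAV10 does.

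The surface tags differed between these cells. The B gene cells, which should carry neither protein, had a median of 90 CD4 tag UMIs, and 90% of them had 191 or fewer. All CD3E+ cells had a median of 387 CD4 tag UMIs, and 6.14% were in that B gene range. Of the 9 cells with 5 or more TRDV3 UMIs, 6 were in it (66.7%, 29.9 to 92.5), and their median was 113. Their 9 values were 33, 54, 55, 60, 113, 159, 205, 371 and 462. Of the 6 cells with TRDV3 and TRGV1, 5 were in the range. The CD8 tag did not follow, since the 9 cells had a median of 738 and none was at or below the B gene limit of 330.5, against a median of 342 and 48.3% at or below the limit among all CD3E+ cells. In RNA, CD4 had a UMI in 1 of the 9 cells, CD8A in 7 and CD8B in none, against 48.6%, 39.0% and 3.99% of the cells without TRDV3.

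TRGV9 cells without TRAV10 were in the B gene range of the CD4 tag in 15 of 59 (25.4%, 14.98 to 38.4), and those with 3 or more TRGV9 UMIs in 12 of 23 (52.2%, 30.6 to 73.2). TRGV9 cells with TRAV10 were there in 1 of 88 (1.14%, 0.0288 to 6.17), with a median of 401.5 CD4 tag UMIs. Their median CD8 tag, 462, was above the 342 of all CD3E+ cells. TRGV1 cells had tags like those of all cells, with medians of 398 for CD4 and 341 for CD8 and 4.91% in the B gene range of the CD4 tag. The sort took cells by both proteins, and the part of the bead sort in the low CD4 tags was not tested.

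Within the TRDV3 cells and the TRGV9 cells without TRAV10, the low CD4 tag also went with ENSMMUG00000057791, for which no name was found. The list places it right after TRAV41 and ahead of TRDV3 and TRAC. It was chosen after its values were seen. It had 232 UMIs in 91 CD3E+ cells (1.24%, 1.003 to 1.53), which as a share is no higher than the 2 of 86 B gene cells (2.33%, 0.283 to 8.15). It was present in 8 of the 9 cells with 5 or more TRDV3 UMIs (88.9%, 51.8 to 99.7), with 1, 4, 6, 2, 2, 3, 3, 0 and 1 UMIs from the highest TRDV3 cell down. The cell without it was the one with alpha segment and CCR7 UMIs. It was also present in 13 of the 23 cells with 3 or more TRGV9 UMIs and no TRAV10 (56.5%, 34.5 to 76.8). It was absent from all 247 cells with TRAV10, which allows a share of up to 1.48%, and present in 3 of the 474 cells with TRGV1 alone (0.633%, 0.131 to 1.84). Of the 15 TRGV9 cells without TRAV10 that held it, 13 were in the B gene range of the CD4 tag, and none of the 15 had a named alpha segment. Of the 76 other cells that held it, 13 were in that range, and 7 of these 13 were TRDV3 cells. Among the 62 cells that held it but none of the 3 segments, 5 were in the range, beside 6.14% of all CD3E+ cells. A feature of the gamma run, ENSMMUG00000063169, was found in 9 of the 59 TRGV9 cells without TRAV10, of which 7 were in that range, and in 65 other cells, of which 4 were. Another, ENSMMUG00000060806, was found in 2 of the 59, both in the range, and in 22 other cells, none in it. Other features of the run did not go with the low tag in this way. ENSMMUG00000054077 was found in 19 of the 59 with 4 in the range, ENSMMUG00000062946 in 10 with 3, and ENSMMUG00000059649 in 9 with 1.

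Single TRGV9 cells without TRAV10 are given as examples, chosen after their values were seen. The cell with most TRGV9 UMIs, 14, had 43 GZMB UMIs, no ENSMMUG00000057791 and a CD4 tag of 344. The next, with 11, had 6 ENSMMUG00000057791, 16 KLRB1 and 13 GZMK UMIs and a CD4 tag of 48. Cells with 6, 6, 5 and 4 TRGV9 UMIs had 8, 11, 10 and 9 ENSMMUG00000057791 UMIs and CD4 tags of 66, 54, 49 and 57. They had 4, 1, 9 and 2 TRAC UMIs, and the cell with a tag of 49 had 2 of beta segments. Other cells with 7, 6, 6 and 4 TRGV9 UMIs had 1, 0, 0 and 0 ENSMMUG00000057791 UMIs and CD4 tags of 429, 457, 234 and 961. Of the cells given here, only that with a tag of 457 had UMIs of a named alpha segment (2, with 2 of beta segments).

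Gene lists were compared between cells with and without each segment, as CPM + 10 and over genes with 50 or more UMIs in the higher group. The lists also hold the markers ZBTB16, CCR7 and GZMB, whose values here repeat the co-detection given above and are not a further result. In TRGV9 cells, 0.338% of 6221 genes were at least 2-fold higher and 1.13% at least 2-fold lower, with a median log2 ratio of -0.17. Of the NK receptors and adaptors, 5 of 8 were at least 2-fold higher, with a median log2 ratio of 1.11. Markers of NK cells, a list that shares TYROBP and NCR1 with the first, were higher too, at 1009.7 against 154.1 CPM in sum and with both genes tested, TYROBP and KLRF1, at least 2-fold higher (median log2 ratio 2.14). Of the 5 NK cell markers found, NCAM1, NCR1 and FCER1G were at 0 in the TRGV9 cells, and the part of NK cells in these values was not tested. Red cell markers were at 9.45 against 246.6 CPM with 2 of 3 at least 2-fold lower, where 1 cell without TRGV9 held 2649 of 2660 HBB UMIs and 1 cell held 3270 of 4543 HBA UMIs. TYROBP was at 853.8 against 82.3 CPM, KLRB1 at 726.2 against 142.5, KLRG1 at 171.7 against 46.6 and KLRD1, the CD94 chain of NKG2 receptors, at 187.4 against 78.2. Of the cytotoxic granule genes, 4 of 9 were at least 2-fold higher, among them CTSW (cathepsin W) at 340.3 against 99.5 CPM, GZMM at 255.2 against 98.5, the pore-forming PRF1 at 165.4 against 70.2 and GZMK at 507.2 against 247.4. Of 9 genes of naive T cells, 4 were at least 2-fold lower, among them CCR7, LEF1 and CD7. Of 7 tested factors of the gamma delta lineage, the marker ZBTB16 was higher (92.9 against 7.06 CPM) and LEF1 lower. Of the 59 ZBTB16 UMIs in the TRGV9 cells, 48 lay in the 88 cells with TRAV10. BLK, a kinase of B cells and of gamma delta T cells, had too few UMIs for the list (30, or 47.3 against 4.27 CPM). Of the 147 TRGV9 cells, 3 held 75 of their 79 B gene UMIs, and the part of these 3 cells in BLK was not tested.

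In TRGV9 cells without TRAV10, 0.217% of 5535 genes were at least 2-fold higher and 3.32% at least 2-fold lower than in other cells without TRAV10, and 4 of 9 cytotoxic granule genes were at least 2-fold higher. GZMK stood at 880.9 against 246.5 CPM, CTSW at 472.5 against 98.7, GZMM at 328.3 against 97.9 and PRF1 at 212.2 against 69.7. Of 4 NK receptor and adaptor genes tested, 2 were, KLRB1 at 572.6 against 136.3 CPM and TYROBP at 316.3 against 75.04. B cell markers were higher in sum as well (316.3 against 74.97 CPM), with 75 of 79 UMIs in the 3 cells above, and their part in these values was not tested. Without those 3 cells, GZMK stood at 988.3 and KLRB1 at 616.6 CPM. NK cell markers summed to 484.5 CPM (402.0 to 578.9) against 146.8, with TYROBP the 1 gene tested and at least 2-fold higher and NCAM1, NCR1 and FCER1G at 0. Red cell markers were at 4.004 against 251.9 CPM with 2 of 3 at least 2-fold lower, and plasmacytoid dendritic cell markers at 28.0 against 9.39 CPM, from 7 UMIs. Monocyte and platelet markers had no UMI in these cells. Of 6 tested factors of the gamma delta lineage, 0 were at least 2-fold higher and 1 at least 2-fold lower. Their median log2 ratio was -0.55, against -0.29 over all tested genes.

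In TRGV1 cells the ratios were small. Of 7256 genes, 0.248% were at least 2-fold higher and 0.165% at least 2-fold lower, with a median log2 ratio of -0.02. The 9 cytotoxic granule genes had a median log2 ratio of 0.72, with none past 2-fold, GZMB at 2211 against 1164 CPM and GZMK at 450.4 against 237.5. Of 7 NK receptors and adaptors 1 was past 2-fold, KLRD1 at 171.0 against 73.4 CPM, and the median was 0.83. Of 9 naive genes, 3 were at least 2-fold lower, among them CCR7 at 47.8 against 151.9 CPM and LEF1 at 47.8 against 111.4. NK cell markers summed to 258.3 against 165.4 CPM with 0 of 2 past 2-fold, and red cell markers to 80.4 against 254.1 CPM with 1 of 3 at least 2-fold lower. Within cells with GZMB, KLRD1 stood at 232.1 CPM with TRGV1 and 162.6 without, and CCR7 at 18.0 and 43.9. The highest ratios in TRGV1 cells belonged to the beta segments TRBV11-1 (254.6 against 23.3 CPM) and TRBV10-1 (154.4 against 16.1 CPM) and to genes that few cells held. The histone gene H3C6 had 78 of its 81 UMIs in 1 cell, and ENSMMUG00000054794 all 69 in 1 cell. In both the TRGV1 and the TRGV9 cells, none of the tested genes of the TCR and CD3 complex passed 2-fold in either direction. The same held for the tested genes of proximal TCR signalling, of V(D)J recombination, of the CD4 and CD8 coreceptors and of the butyrophilins.

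The 20 TRDV3 cells have few UMIs, so a gene with no UMI there can pass a 2-fold ratio through few counts alone. Of 5938 genes, 17.8% were at least 2-fold lower and 0.0337% at least 2-fold higher. The latter were the chemokine gene CCL5 (1434 against 284.5 CPM, 123 UMIs in 12 cells) and ENSMMUG00000065373, which has no name here (27267 against 12700 CPM). Genes with fewer UMIs were also higher. KLRD1 stood at 408.0 against 79.5 CPM (log2 ratio 2.36, 1.83 to 2.84), TYROBP at 454.6 against 97.6 (2.22, 1.73 to 2.67), PRF1 at 303.1 against 71.5 (2.08, 1.47 to 2.64) and CTSW at 338.1 against 103.9 (1.70, 1.12 to 2.23). NCR1, which encodes the NK receptor NKp46, had 3 UMIs in 2 cells against 20 in all other cells (log2 ratio 5.71, 3.32 to 7.47). GZMK was lower, at 46.6 against 253.5 CPM (-2.44, -4.32 to -1.09), but a GZMK UMI was found in 4 of the 20 cells (20%) and in 19.4% of the cells without TRDV3, so the share of cells did not differ in the same way. In the 9 cells with 5 or more TRDV3 UMIs, KLRD1 and TYROBP had a UMI in 8 each, against 16.9% and 16.3% of the cells without TRDV3. B cell, platelet and plasmacytoid dendritic cell markers had no UMI in the 20 cells, and 1 monocyte marker UMI was found. NK cell markers, a list that also holds TYROBP and NCR1, summed to 594.5 CPM (442.7 to 781.7) against 170.9, with FCER1G and NCAM1 at 0, and their part in these values was not tested. Red cell markers were at 46.6 against 242.1 CPM with 2 of 3 at least 2-fold lower, again with most HBB and HBA UMIs of the other cells in 1 cell.

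The presence or absence of the 5 markers made 10 groups of at least 50 CD3E+ cells, which held 7080 cells. TRDV3 and TRGV1 were both highest in cells with GZMB and EOMES alone (112 cells), at 70.3 CPM (48.4 to 98.7) and 93.7 CPM (68.1 to 125.8). The TRDV3 level came from 4 of those cells and the TRGV1 level from 29 (25.9%). For TRGV1 the next group was GZMB alone (2759 cells) with 48.0 CPM (43.7 to 52.6), then TRAV10 with GZMB with 41.6 CPM (22.2 to 71.2), and these overlap in their intervals. TRGV9 was highest with TRAV10 and GZMB (78 cells, 185.8 CPM, 141.1 to 240.2) and TRAV10 alone (53 cells, 134.8 CPM, 90.9 to 192.4), whose intervals overlap too, and then with GZMB and EOMES (44.7 CPM, 27.7 to 68.3). CCR7 alone (1700 cells) had the lowest TRGV1 level, 5.73 CPM (4.18 to 7.66), and 1.27 CPM of TRGV9.

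Over these 10 groups, the genes most like the summed gamma segments by Pearson r of log2(CPM + 10), of 7626 genes with 200 or more UMIs, were KLRB1 (0.94), NLRC3, TRIOBP, PTPN7 and ABCF3 (0.93). For TRDV3 they were JPT2 (0.92), DEF8, MRPS18C, LNPK and ENSMMUG00000058213 (0.88). The gene most like TRGV9 alone was TYROBP (0.96), and the gene most like TRGV1 alone was CEP78 (0.97). TRGV1 and TRGV9 had an r of 0.49 with each other. The 10 groups share 1 library and differ in size and depth. The values for TRDV3 rest on 1 group, since TRDV3 stood at 70.3 CPM with GZMB and EOMES, from 33 UMIs in 4 cells, and at 7.53 CPM or less in the other 9.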

How the data were processed

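Reads were mapped by the authors to Mmul_10 (STAR 2.5.1b within Cell Ranger 3.1.0), and what they deposited are UMI counts for each barcode and each gene or tag, not normalized. No source used here states the annotation release. Cells were filtered by the limits the study states, with 37 mitochondrial features. Counts were summed over cells as CPM with exact Poisson 95% intervals. Shares have exact binomial (Clopper-Pearson) intervals, and log2 ratios an exact interval from how the 2 counts split. Where 1 count was 0, 3 counts stood in for it and gave a bound. Shares were repeated after thinning each cell to 2000 UMIs (seed 1), which left out 376 shallower CD3E+ cells. Thinned shares kept the groups by raw marker UMIs, while log2 ratios after thinning took the marker from the thinned counts too. Genes were compared with a pseudocount of 10 CPM. With 1 library, cells are not replicates and no test was run. RefSeq positions of neighbours were matched by symbol. Alternatives covered cell filters, CD3 rules, marker and member limits, thinning, pseudocounts and means over cells. Members, markers and gene lists were chosen with earlier results of these data known. Named genes are the segments, markers and up to 4 genes per list, the 5 highest and lowest ratios for TRDV3 and the 5 most alike. Others were named after their values were seen. Computation was tested on simulated data, with scipy 1.17.1, numpy 2.4.6, matplotlib 3.10.9 and pandas 2.3.3 under Python 3.11.15.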

Additional observations from a re-analysis of the deposited data

How the results depend on the processing

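No paired analysis was possible because there is 1 animal and 1 library of each kind. Over 309 recomputed values, 272 were classed as unchanged, 27 as moved, 9 as weaker and 1 as reversed. A ratio with an interval that excluded 0 was unchanged if it stayed inside that interval and any new interval also excluded 0. A ratio with an interval that included 0 was unchanged if the new interval did so too, whatever its sign. An upper bound was unchanged if not above 0. Shares and tag medians had to stay inside their first interval, and gene counts within a set limit. For TRDV3, the log2 ratio with GZMB was 4.05 at a mitochondrial limit of 10%. With EOMES it was 4.43 after thinning, 2.47 as a mean over cells and -0.046 with 2 or more EOMES UMIs, which leaves 1 TRDV3 UMI. With CCR7 it was -0.63 with the mitochondrial limit on the named genes alone, -1.44 after thinning and -0.41 with 2 or more CCR7 UMIs, each with an interval that includes 0. The upper bound with TRAV10, where no UMI was found, was 0.079 without the 5% of cells with most UMIs, 1.49 after thinning and 0.010 with 2 or more TRAV10 UMIs. For the summed gamma segments, thinning gave a share of 5.80% and log2 ratios of 2.46 with ZBTB16, 1.47 with GZMB and 0.65 with EOMES, and a median CD8 tag of 321. With 2 or more marker UMIs the ratios were 2.40 with ZBTB16 and -2.73 with CCR7. With 3 or more UMIs of the segment, chosen after seeing the data, the shares were 0.150% for delta and 1.53% for gamma, and a limit of 5 TRDV3 or 3 gamma UMIs gave a median CD8 tag of 396. Genes at least 2-fold lower with TRDV3 numbered 1056 as reported, 3504 with CPM + 1, 23 with CPM + 50 and 2709 after thinning. Genes at least 2-fold higher numbered 2 as reported, 35 with 10 or more UMIs in the higher group and 1 after thinning. Leaving out CD3E+ cells with 3 or more B gene UMIs, also added later, left all 31 values recomputed for it in the unchanged class. TRDV3 values rest on 100 UMIs in 20 cells.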
